A study of Mus musculus with 9 samples.

Results

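The nuclear genes for the subunits of oxidative phosphorylation were followed over 3 groups of mouse thymic epithelial cells measured on 9 microarrays. Members were all genes whose single symbol in the probe annotation begins with Ndufa, Ndufb, Ndufc, Ndufs, Ndufv, Uqcr, Atp5 or Cox4 to Cox8, together with Sdha, Sdhb, Sdhc, Sdhd and Cyc1, with the Ndufaf assembly factors left out. This gave 83 of the 18194 genes tested: 36 named for complex I, 4 for complex II, 9 for complex III, 17 for complex IV and 17 for complex V. Each gene was read from its brightest probe set, the one with the highest mean log2 intensity over the 9 arrays. A few matched genes are not subunits in the strict sense. Cox7a2l acts in joining complexes III and IV, Ndufa4l2 is a paralogue of Ndufa4, and Ndufa4 itself, first assigned to complex I, is now counted with complex IV; all 3 were kept under the complex their symbol names. Ndufs6, Ndufa11 and Cox7b had no probe set with 1 symbol, and 0 of the 13 subunits encoded by mitochondrial DNA were matched, so these were not analysed here.

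All cells came from C57BL/6 mice aged 8 to 20 weeks. A transgene, a bacterial artificial chromosome with the green fluorescent protein ZsGreen (ZsG) placed at the start codon of Tslp, reports on that cytokine gene. The 3 groups, with 3 arrays each, were ZsG minus cTEC (reporter-negative cortical thymic epithelial cells), ZsG minus mTEC (reporter-negative medullary thymic epithelial cells) and ZsG plus (reporter-positive cells, whose compartment is not given in the sources used here). The labels do not state whether the ZsG minus cells also carried the transgene, which markers defined the sorts, or whether the replicates of a group are different animals; the p-values may therefore rest on technical spread alone. The cell type field reads keratinocytes for every sample, and the group names used here follow the titles.

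Oxidative phosphorylation takes place in the inner mitochondrial membrane. Complex I accepts electrons from NADH and complex II from succinate, both hand them through ubiquinone to complex III and by way of cytochrome c to complex IV, where oxygen is reduced, and complex V uses the resulting proton gradient to make ATP. Cortical epithelium supports the early development and positive selection of thymocytes, whereas medullary epithelium displays tissue antigens to them, many of these under the control of Aire.

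The group labels were checked against epithelial markers. Of 8 genes listed as cortical markers, 7 read lower on every ZsG minus mTEC array than on any ZsG minus cTEC array. The other, Foxn1, is not restricted to cortical epithelium and read higher on every ZsG minus mTEC array (log2 difference 0.90 ± 0.69, SE). Of 9 medullary markers measured, 6 read higher in this way and 0 lower, while Krt5 was level (-0.03 ± 0.70). Of all genes, 16.6% read higher and 11.8% lower in this way. Prss16, a serine protease of cortical epithelium, was lower in ZsG minus mTEC than in ZsG minus cTEC (log2 difference -4.04 ± 0.64, SE; limma adjusted p = 0.0422). Aire was higher there (3.33 ± 0.55; adjusted p = 0.0451), and so was Fezf2, another regulator of medullary antigen expression (3.70 ± 0.61; adjusted p = 0.0449). ZsG plus arrays resembled ZsG minus mTEC in summed medullary markers, at 149900 to 204600 against 157900 to 163700, with 27920 to 52280 in ZsG minus cTEC. The ZsG plus arrays stood apart for all genes: a gene's median SD on the log2 scale was 1.30, compared with 0.61 for ZsG minus cTEC and 0.63 for ZsG minus mTEC, and the 3′ to 5′ signal ratio of Gapdh, a measure of RNA integrity, was 6.71 to 10.6 against 4.55 to 5.97 on the other 6 arrays. The same ratio for actin did not set them apart, at 0.80 to 1.21 against 0.87 to 1.14.

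No subunit gene passed an adjusted p of 0.05 in any comparison by limma. Across all genes tested, 0.627% passed between ZsG minus mTEC and ZsG minus cTEC, 0.22% when ZsG plus was set against ZsG minus mTEC, and 1.74% when it was set against ZsG minus cTEC. The lowest adjusted p of a member in these comparisons was 0.125, 0.186 and 0.236. A p that misses the threshold does not show that levels were alike. What follows therefore describes readings and their overlap. Groups are said not to overlap when every array of one read above every array of the other.

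Medullary and cortical epithelium differed in the same direction for most subunit genes. In ZsG minus mTEC, 73 of the 83 genes had a higher mean log2 intensity than in ZsG minus cTEC, whereas 53.9% of all genes did. The groups did not overlap for 33 members that read higher in ZsG minus mTEC, or 39.8% of members, against 16.6% of all genes, and for 0 members that read lower, against 11.8% of all genes. These shares are not matched for brightness or spread. Members read brighter, and their median SD (log2) was 0.28 in ZsG minus cTEC and 0.30 in ZsG minus mTEC, against 0.61 and 0.63 for all genes. Groups with a low spread separate at smaller differences, and the part of this was not tested. The median log2 difference over members was 0.45, a 1.37-fold ratio, and 0.09 over all genes. At an unadjusted p of 0.05, 2 members lay higher, Ndufc2 and Cox7b2, and 0 lower, where all genes gave 8.4% and 3.9%.

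**Figure D1:**
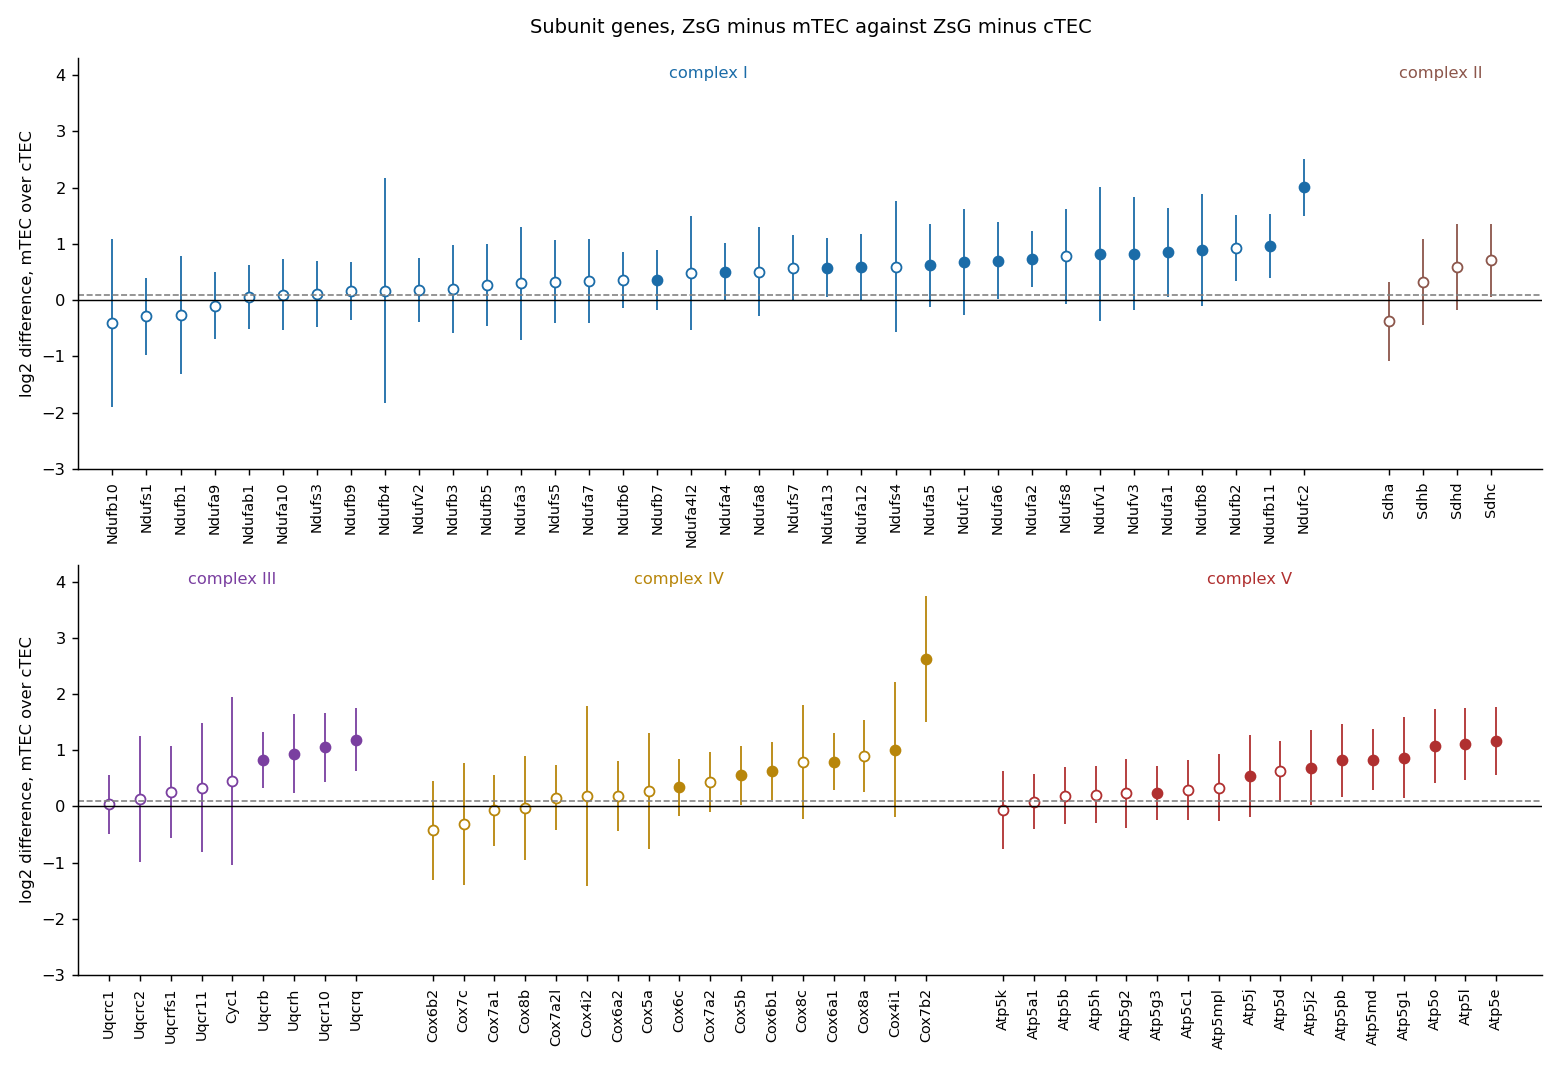
Log2 difference in intensity between ZsG minus mTEC and ZsG minus cTEC for each of the 83 subunit genes, grouped by complex and sorted within it; bars are standard errors of the fit, filled points mark the 33 genes whose groups did not overlap, and the dashed line is the median over all genes tested (0.09). Filled points occur in complexes I, III, IV and V, and 10 genes lie below 0.

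By complex, the median difference between ZsG minus mTEC and ZsG minus cTEC was 0.50 for complex I, 0.46 for complex II, 0.45 for complex III, 0.34 for complex IV and 0.54 for complex V. Groups did not overlap for 14 of 36, 0 of 4, 4 of 9, 6 of 17 and 9 of 17 genes. The direction of the overall median held under 3 other scalings of the arrays (0.42 after repeated quantile normalization, 0.46 and 0.28 after centring on the median of all probe sets and of the genes tested), and the number of members reading higher without overlap was then 28, 33 and 23, against 16.3%, 16.4% and 13.2% of all genes. With the last centring the median of all genes was -0.08 and 1 member read lower without overlap. Set against the median of all genes on the same array, however, the members' median log2 intensity stood 3.43, 3.66 and 3.62 above it in ZsG minus cTEC and 3.91, 3.86 and 3.65 above it in ZsG minus mTEC. The third ZsG minus mTEC array therefore fell within the cortical range by this measure.

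The roles used from here on were assigned after the values were seen, differences between roles were not tested, and 16.6% of all genes read higher in ZsG minus mTEC without overlap. Complex I holds the catalytic core of iron-sulfur and flavin proteins and a large shell of accessory subunits. Of its 28 accessory members apart from Ndufa4 and Ndufa4l2, 12 read higher in ZsG minus mTEC without overlap: Ndufa1, Ndufa2, Ndufa5, Ndufa6, Ndufa12, Ndufa13, Ndufb7, Ndufb8, Ndufb11, Ndufc1, Ndufc2 and Ndufv3. Of the 6 core members measured, 1 did, a share like that of all genes: Ndufv1, the flavoprotein that takes electrons from NADH. Ndufv1 read 4617, 3564 and 4456 in ZsG minus cTEC and 8003, 5916 and 8546 in ZsG minus mTEC. The iron-sulfur proteins Ndufs1, Ndufs7, Ndufs8 and Ndufv2, and the core subunit Ndufs3, all overlapped between these groups.

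Ndufc2, an accessory subunit of the membrane arm, showed the clearest separation. Its readings were 7389, 7880 and 6194 in ZsG minus cTEC, 32848, 28411 and 24936 in ZsG minus mTEC, and 11231, 19609 and 11926 in ZsG plus. All 3 groups were separate from one another, in the order cortical, reporter-positive, medullary, and Ndufc2 was the only member with that order, which 0.517% of all genes showed. The medullary level was 4.01-fold the cortical level (log2 difference 2.0 ± 0.51, SE, n = 3 and 3; limma adjusted p = 0.125). All 4 probe sets of Ndufc2 lay higher in ZsG minus mTEC than in ZsG minus cTEC. The place of ZsG plus was less settled: 2 of the other probe sets gave it slightly under ZsG minus cTEC, with overlap (-0.19 and -0.03). The adjusted p was 0.0412 when only these 2 groups were fitted, 0.0149 with array weights and 0.0109 with an intensity trend in the variance, and ran from 0.0109 to 0.338 over all alternatives.

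Other complex I genes showed a smaller step. Ndufa5, an accessory subunit of the arm that projects into the matrix, read 16628, 14931 and 15534 in ZsG minus cTEC against 28621, 17985 and 27082 in ZsG minus mTEC. Ndufa13, also known as GRIM-19, read 11953, 15781 and 12419 against 18251, 21871 and 19612. Neither pair of groups overlapped. Ndufb10, an accessory membrane-arm subunit, marked the other end of the complex: it read 5991, 7419 and 7989 in ZsG minus cTEC and 5998, 3471 and 7241 in ZsG minus mTEC, with overlapping groups (log2 difference -0.41 ± 1.5).

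In complex II, which is also succinate dehydrogenase of the citric acid cycle, none of the 4 genes separated the ZsG minus groups. Sdha, the flavoprotein that oxidises succinate, read 21088, 18734 and 24101 in ZsG minus cTEC and 12840, 19519 and 17246 in ZsG minus mTEC (log2 difference -0.38 ± 0.70). Sdhc, one of the membrane anchors, read 3926, 6753 and 8790 against 13676, 7955 and 9356 (0.71 ± 0.65). Sdhd, the other anchor, and Sdhb, the iron-sulfur subunit, overlapped too.

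In complex III, Uqcrb, Uqcrh, Uqcr10 and Uqcrq, 4 of the 5 small subunits, read higher in ZsG minus mTEC without overlap, whereas the core proteins Uqcrc1 and Uqcrc2 and the electron carriers Cyc1 and Uqcrfs1 overlapped. Uqcrb read 18816, 13843 and 14874 in ZsG minus cTEC and 25920, 26413 and 31513 in ZsG minus mTEC. Uqcrq read 1324, 1525 and 2165 against 4899, 3386 and 3134 (log2 difference 1.19 ± 0.55, adjusted p = 0.433). The remaining 3 probe sets of Uqcrq lay lower in ZsG minus mTEC, and the mean over its 4 probe sets gave -1.08, so the direction for Uqcrq depends on the probe set. Cyc1, the heme protein that passes electrons to cytochrome c, read 2370, 2419 and 1392 against 2354, 2461 and 3527, and these groups overlapped.

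Several complex IV subunits exist as a common form and a tissue-restricted isoform. Of 9 common forms, 5 read higher in ZsG minus mTEC without overlap: Cox4i1, Cox5b, Cox6a1, Cox6b1 and Cox6c. Cox6a1, the common form of subunit 6a, gave 16917, 18152 and 17439 in ZsG minus cTEC, 28868, 30531 and 31645 in ZsG minus mTEC and 19273, 20542 and 10786 in ZsG plus. These readings of Cox6a1 were close together within both ZsG minus groups, and the medullary arrays stood above all 6 others. Its second probe set also separated the ZsG minus groups, at 12164, 11439 and 7944 against 19692, 21471 and 15908. There, however, the ZsG plus readings of 24253, 6824 and 24718 overlapped the medullary ones. Cox4i1, the common form of subunit 4, read 10215, 11555 and 9153 in ZsG minus cTEC and 25140, 21134 and 16599 in ZsG minus mTEC. On the ZsG plus arrays Cox4i1 read 14329, 8789 and 354, so its low group mean came mainly from 1 array.

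Of 7 restricted isoforms, 1 read higher in ZsG minus mTEC without overlap, a share near that of all genes. This was Cox7b2, at 31, 11 and 18 in ZsG minus cTEC and 626, 46 and 51 in ZsG minus mTEC (log2 difference 2.63 ± 1.12, limma adjusted p = 0.38). Those readings lie within 3.77 to 341, the span of 6 control probe sets for bacterial transcripts (PheX and DapX), except on 1 medullary array. Cox4i2, Cox7a1, Cox7b2 and Cox8b had group levels under the highest of these controls in all 3 groups, as did Cox7c, Ndufa4l2, Ndufb1 and Ndufb4. Differences of these 8 genes rest on dim readings. Cox6b2, a form best known from testis, read 912, 294 and 224 in ZsG minus cTEC and 210, 155 and 762 in ZsG minus mTEC (log2 difference -0.43 ± 0.88), with overlap.

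**Figure D2:**
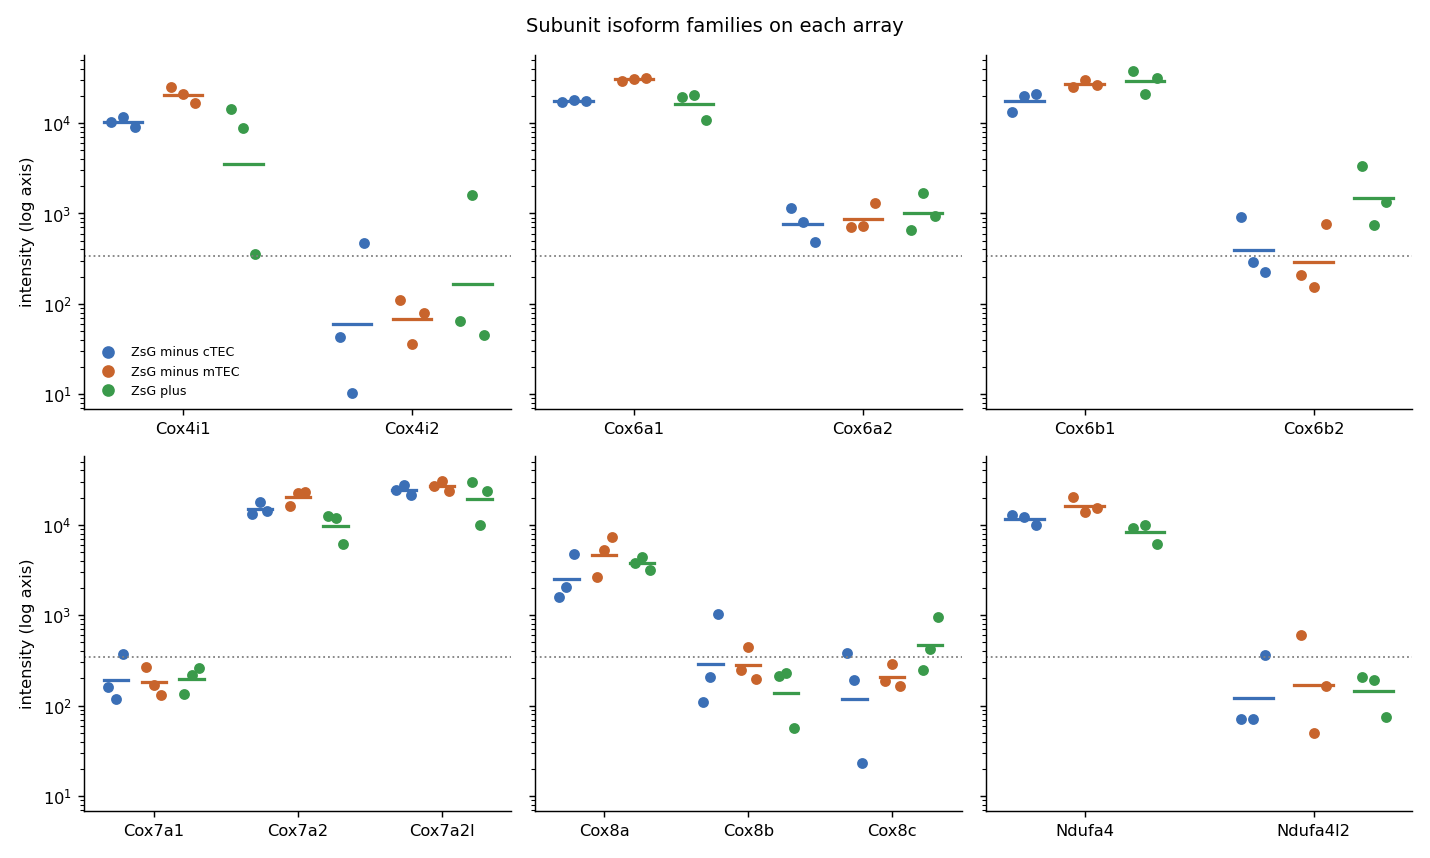
Intensity (log axis) of the members of 6 isoform families on each array, with 3 points per group and a bar at the geometric mean; the dotted line is the highest bacterial control reading (341), and levels of different genes are not comparable because each has its own probes. For Cox6a1 the medullary points (28868 to 31645) lie above every other point of the brightest probe set, which is the one drawn, but not in its second probe set. Cox4i2, Cox7a1 and Cox8b lie mostly under the dotted line in each group.

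The ATP synthase had the largest share of separated genes. Outside the F1 head, 2 of 3 genes for the c ring (Atp5g1 and Atp5g3), 3 of 4 genes for the peripheral stalk (Atp5j, Atp5o and Atp5pb) and 3 of 5 other membrane subunits (Atp5j2, Atp5l and Atp5md) read higher in ZsG minus mTEC without overlap. Of the 5 genes of the F1 head, where ATP is made, Atp5e did so, and Atp5a1, Atp5b, Atp5c1 and Atp5d overlapped. Atp5e, the epsilon subunit, read 6402, 10028 and 6793 in ZsG minus cTEC and 16263, 17641 and 16845 in ZsG minus mTEC (log2 difference 1.16 ± 0.60, a 2.23-fold ratio, adjusted p = 0.505). Its medullary readings were the higher on every array. Atp5b, the catalytic beta subunit, read 20613, 31854 and 26092 against 32302, 29700 and 26638. Atp5k, a subunit of the membrane sector, lay lowest in the complex with a difference of -0.06 ± 0.69, and turned positive when its 3 probe sets were averaged (0.58).

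The 3 genes for subunit c encode the same mature protein and differ in their targeting peptides. Atp5g1 read 2313, 1728 and 1911 in ZsG minus cTEC and 4027, 4484 and 2574 in ZsG minus mTEC. Atp5g3 read 10213, 9764 and 10202 against 10724, 11276 and 13818. Both were separate, the second by a narrow step, and Atp5g2 overlapped at 1022, 2248 and 2691 against 1900, 2206 and 2391.

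Markers of other cells moved between the same groups. All 7 measured thymocyte markers had a lower mean in ZsG minus mTEC, 6 without overlap, and their summed intensity was 39400 to 53870 on the ZsG minus cTEC arrays and 5179 to 8757 on the ZsG minus mTEC arrays; Cd8a passed the test (-3.41 ± 0.61, adjusted p = 0.0491). All 6 fibroblast markers were lower on average, 5 without overlap, with sums of 34360 to 52920 and 4196 to 7500, and Dcn passed (-3.26 ± 0.55, adjusted p = 0.0455). Sums of 4 general epithelial markers were 96540 to 129200 in ZsG minus cTEC and 143200 to 153700 in ZsG minus mTEC. The sums of 7 dendritic cell and macrophage markers overlapped, at 14690 to 43380 and 37740 to 53130. Erythroid markers summed to 61 to 525 and 2247 to 2379, and muscle markers to 398 to 451 and 1003 to 1516. No marker was at 0. The part of these cells in the difference between the subunit genes was not tested, and fewer cells of a type cannot be told apart from less RNA per cell in such bulk samples.

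Promoter sequence was read for the members because they lay in one direction together. Nuclear respiratory factor 1 (NRF1) is a transcription factor known for its sites in genes of the respiratory chain. Its motif was searched as GCGCA, any base and GCGC, on both strands, from 250 bases before to 50 bases after each RefSeq transcript start of the mouse assembly GRCm38.p6. A promoter window was held for 67 of the 83 members, and 15 of them, or 22.4%, contained the motif, against 5.19% of 27025 genes with a window and 8.61% of the 14453 tested genes with one. The core of the ETS family motif, CGGAAG, was found in 29 of the 67, or 43.3%, against 18.8% and 27.1%; the motifs were counted separately, and a window may hold both. The following stretches show 3 holders, 2 of them with separate ZsG minus groups (Cox6a1 and Ndufa5) and Sdhd, whose ZsG minus groups overlapped. Capitals mark the motif, all lie on the minus strand and are written 5′ to 3′, and the first capital lies 162, 117, 26 and 79 bases before the start in the order given.
Cox6a1, chr5:115349091-115349140: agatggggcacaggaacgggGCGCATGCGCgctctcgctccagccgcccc
Cox6a1, chr5:115349046-115349095: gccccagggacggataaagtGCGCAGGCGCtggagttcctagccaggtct
Ndufa5, chr6:24527691-24527740: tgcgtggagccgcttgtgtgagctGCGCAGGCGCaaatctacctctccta
Sdhd, chr9:50603899-50603948: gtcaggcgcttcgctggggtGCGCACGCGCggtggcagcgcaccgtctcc

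Holding the NRF1 motif did not go with a larger difference. The median log2 difference between ZsG minus mTEC and ZsG minus cTEC was 0.29 over the 15 members with the motif and 0.55 over the 52 without. Holders with separate ZsG minus groups were Cox6a1, Ndufa5, Ndufa6, Atp5g3 and Atp5o, while Sdha, Sdhd, Uqcrc1, Ndufa8 and Atp5h also hold it and overlapped. A match is a description of these letters and not of binding.

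Reporter-positive cells were compared with medullary epithelium next. Of the 83 genes, 68 had a mean below that of ZsG minus mTEC and 15 a mean above it; 39.0% of all genes were higher. The groups did not overlap for 21 members that read lower, against 12.3% of all genes, and for 2 that read higher, against 5.77%. The lower count depends on the probe sets: with those that lack the suffixes _a_at, _s_at and _x_at, 8 of 67 members read lower without overlap, against 12.2% of all genes. Unadjusted p under 0.05 was reached by 10 members on the lower side, where all genes gave 10.2%, and by 1, Cox6b2, on the higher side, where all genes gave 3.2%. The median over members was -0.66, with -0.33 over all genes, so that the members stood 0.34 below the common shift. With each array centred on the median of all probe sets the members' median was -0.13 and that of all genes 0.21, and with centring on the genes tested -0.04 and 0.30. Under these centrings 10 and 9 members read lower without overlap, against 6.46% and 5.82% of all genes, and 5 and 6 read higher, against 12.3% and 14%.

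**Figure D3:**
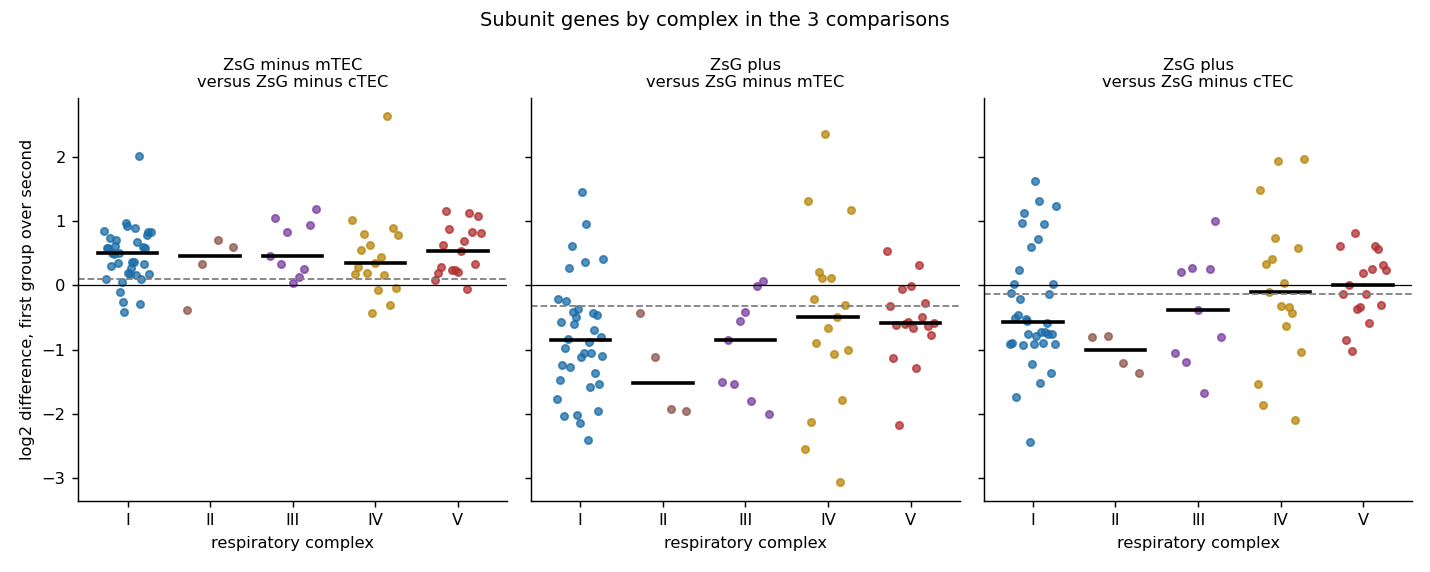
Log2 difference of each subunit gene in the 3 comparisons, by complex; each point is 1 gene, black bars are medians of a complex, and the dashed line is the median over all genes tested. The medians of all 5 complexes lie above the dashed line in the left panel (0.34 to 0.54) and below it in the middle panel (-0.50 to -1.52).

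Spread within ZsG plus was wide for the subunit genes as well. The median SD of a member was 0.97 (log2) in reporter-positive cells, 0.30 in medullary and 0.28 in cortical cells. The first ZsG plus array gave the highest of the 3 readings for 37 members, the second for 21 and the third for 25. Without the first, 38 members read lower than ZsG minus mTEC without overlap (21.7% of all genes) and the median was -0.96; without the third, 32 did (19.3%). Few members dropped to the level of the controls: of 68 at 1000 or more on all 6 ZsG minus arrays, 3 fell under the highest control reading on a ZsG plus array, or 4.41%, against 16.5% of 4535 such genes. The 68 and the 4535 were not matched for brightness above that floor, and the part of brightness in these shares was not tested. Over the 4535 genes the third ZsG plus array held most such readings, 12.1% against 3.75% and 3.79% on the first and second. The members were Ndufb8 on the first ZsG plus array and Cyc1 and Ndufb10 on the third; Cox4i1, at 354 on the third, lay just above the limit of 341. Ndufv3 went the other way on that array, at 103974 against 11529 and 4666 on the others. The Gapdh 3′ to 5′ ratio was highest on the first ZsG plus array (10.6, with 6.71 and 8.21 on the others), whereas the third gave the lowest of the 3 readings for 36 members; the part of RNA quality was not tested. Marker sums of other cells on the ZsG plus arrays were 6708 to 7077 for thymocytes, 4139 to 25460 for fibroblasts and 31400 to 99130 for dendritic cells and macrophages, with the highest of the latter pair on the third array; their part was not tested either.

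Among complex I genes, Ndufb2 and Ndufs7 were low on every ZsG plus array. Ndufb2, an accessory subunit of the membrane arm, read 572, 486 and 404 in ZsG plus, 1157, 2051 and 4091 for ZsG minus mTEC and 1063, 1206 and 1108 in ZsG minus cTEC. It thus lay under both other groups without overlap (log2 difference from ZsG minus mTEC -2.14 ± 0.59, limma adjusted p = 0.186). Ndufs7, which carries the last iron-sulfur cluster before ubiquinone, read 2257, 1185 and 1014 in ZsG plus, 3528, 6801 and 6466 for ZsG minus mTEC and 2498, 4477 and 4167 in ZsG minus cTEC. It too lay under both groups, by -1.95 ± 0.59 (adjusted p = 0.212) and -1.37 ± 0.59 (adjusted p = 0.253). Cox7a2, Ndufb9 and Uqcrq were the other members below both groups, 5 in all or 6.02%, a share near the 5.89% of all genes.

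Ndufb7 pointed the opposite way. This accessory subunit, which faces the intermembrane space, read 43991, 87835 and 104980 in ZsG plus, 35368, 36860 and 43451 for ZsG minus mTEC and 26343, 33281 and 30544 in ZsG minus cTEC. All 3 reporter-positive readings were the highest of the 9. The difference from ZsG minus cTEC was 1.31 ± 0.54 (limma adjusted p = 0.236; 0.0358 with an intensity trend, and 0.0358 to 0.804 over the alternatives). Its second probe set gave -0.79, so the direction depends on the probe set.

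Other complex I genes with an unadjusted p under 0.05 against ZsG minus mTEC were Ndufa12 (-1.48 ± 0.59), Ndufa2 (-1.24 ± 0.50) and Ndufb8 (-2.41 ± 1.00). Ndufb8, a membrane-arm subunit often used as a marker of assembled complex I, read 167, 3588 and 1644 in ZsG plus against 5904, 4226 and 5862 in ZsG minus mTEC. One low array carried much of that difference. The dim Ndufb4 read 47, 88 and 237 in ZsG plus, and its groups overlapped in every comparison.

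Both membrane anchors of succinate dehydrogenase were below ZsG minus mTEC on all ZsG plus arrays by their brightest probe sets. Sdhc read 4919, 1321 and 2883 in ZsG plus against 13676, 7955 and 9356 in ZsG minus mTEC (log2 difference -1.92 ± 0.65, limma adjusted p = 0.266). Sdhd read 1596, 4909 and 4640 against 17235, 8446 and 14463 (-1.95 ± 0.76, adjusted p = 0.33). The second probe set of each gene overlapped between these groups, with differences of -0.30 for Sdhc and -1.41 for Sdhd. The catalytic pair overlapped: Sdha read 12768, 4701 and 29597 in ZsG plus, and Sdhb 5603, 4147 and 808 against 5903, 8439 and 3824. Complex II had the lowest median of the 5 complexes in this comparison, -1.52 over 4 genes.

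In complex III, the small subunit Uqcrq read 1291, 584 and 1080 in ZsG plus, under every reading of both other groups (-2.0 ± 0.55 from ZsG minus mTEC, limma adjusted p = 0.188). The mean of its 4 probe sets gave 0.12, with the opposite sign. Uqcrb read 16746, 15904 and 25396, also under its ZsG minus mTEC readings, by a narrow step on the third array. Uqcrh, the hinge protein beside cytochrome c1, gave 7412, 9228 and 32581 and did not settle on a direction (0.06 ± 0.71). Cyc1 read 3536, 4966 and 51 in ZsG plus, above all cortical readings on the first and second arrays and far under them on the third. Uqcrc2, a core protein, read 6761, 11944 and 408, again far lower on the third array than on the others.

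In complex IV, Cox6a1, Cox6c, Cox7a2, Cox4i1 and the dim Cox7b2 read under their ZsG minus mTEC levels without overlap by their brightest probe sets. Cox7a2, the common form of subunit 7a, read 12636, 11979 and 6063 in ZsG plus, 16236, 22607 and 23022 for ZsG minus mTEC and 13136, 18016 and 14342 in ZsG minus cTEC. It was below both groups on all 3 arrays. Cox6c, a subunit without a tissue isoform, read 46930, 23909 and 32631 against 58162, 51842 and 48313 in ZsG minus mTEC. Cox6b1 lay high instead, at 37910, 21205 and 31106 in ZsG plus against 13089, 19686 and 20735 in ZsG minus cTEC, with overlap with ZsG minus mTEC at 24974, 30136 and 26507.

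The restricted isoforms Cox6b2 and Cox8c had the highest differences of complex IV. Cox6b2 read 3355, 741 and 1325 in ZsG plus against 210, 155 and 762 in ZsG minus mTEC, a difference of 2.35 ± 0.88 (limma adjusted p = 0.31), and 1 medullary array lay between the reporter-positive readings. Cox8c, another form best known from testis, read 249, 421 and 944 in ZsG plus and 382, 192 and 23 in ZsG minus cTEC (1.96 ± 1.01, adjusted p = 0.333). Both pairs of groups overlapped. Cox7c gave dim readings of 117, 12 and 289 in ZsG plus and 396, 565 and 143 in ZsG minus cTEC, with overlap.

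ATP synthase genes again included both directions. Atp5e read 1872, 6773 and 4153 in ZsG plus, under all ZsG minus mTEC readings (-2.17 ± 0.60, limma adjusted p = 0.188) and overlapping ZsG minus cTEC (-1.02 ± 0.60). Atp5c1, the gamma shaft of the F1 head, read 11126, 5744 and 7367 in ZsG plus against 20606, 16264 and 14893 in ZsG minus mTEC. Atp5g3 and Atp5j2 were likewise under ZsG minus mTEC without overlap. Atp5a1, the alpha subunit, was the one ATP synthase gene above both groups, as 2 members in all were (with Ndufb7), against 2.8% of all genes: 89449, 96054 and 113620 in ZsG plus, 75216, 74781 and 57872 for ZsG minus mTEC and 57156, 62239 and 76360 in ZsG minus cTEC. Its difference from ZsG minus mTEC was 0.53 ± 0.49 and became -0.06 after repeated quantile normalization.

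**Figure D4:**
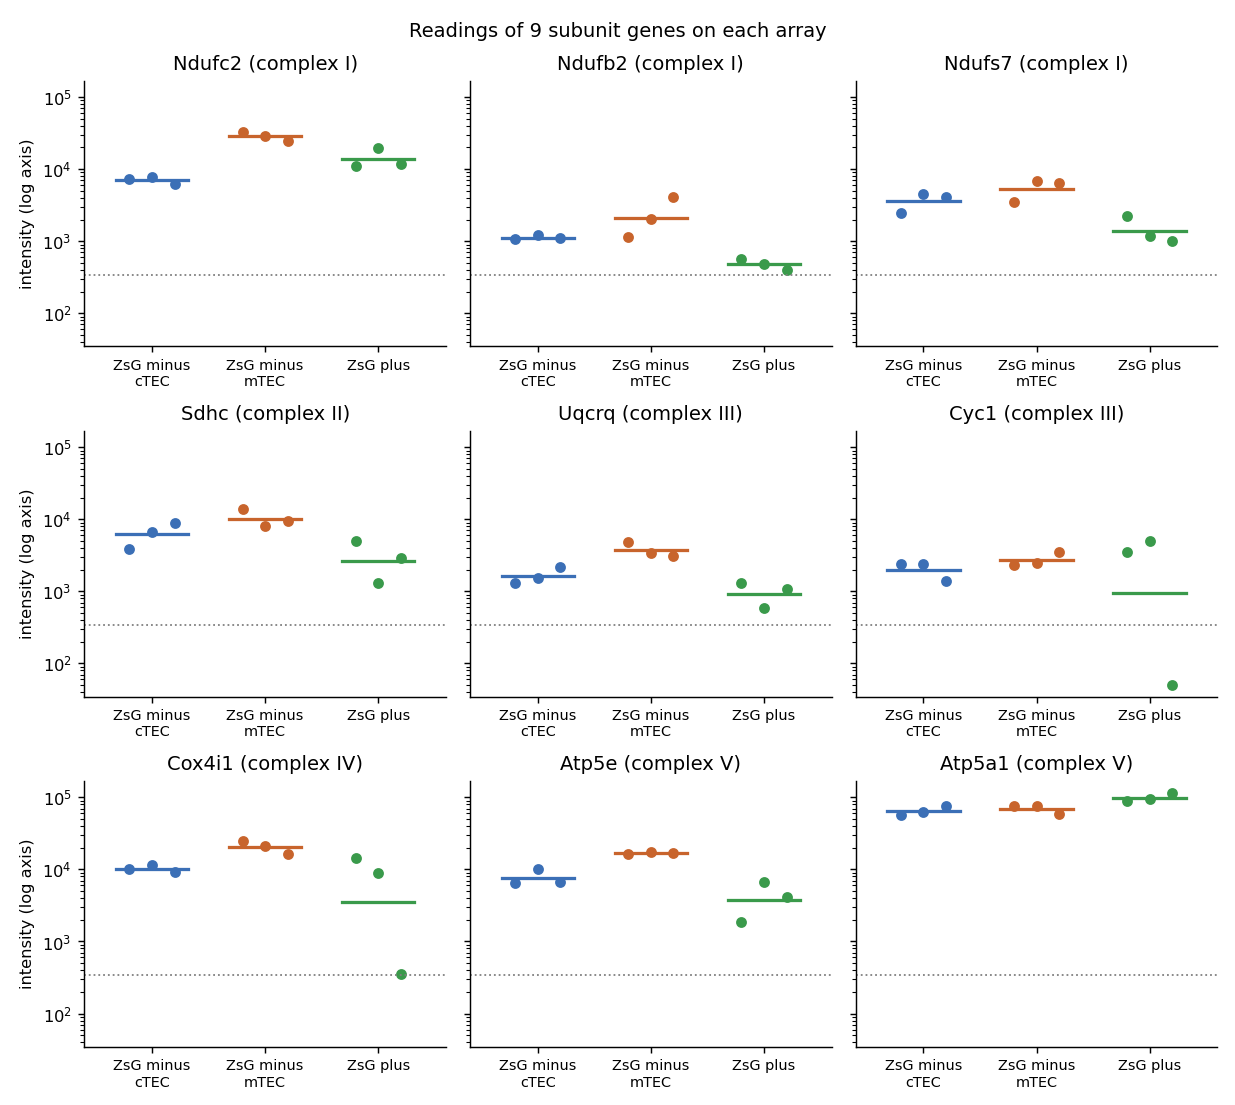
Intensity (log axis) of 9 subunit genes on each array, with 3 points per group, a bar at the geometric mean and a dotted line at the highest bacterial control reading (341). Ndufc2 separates all 3 groups, Ndufb2, Ndufs7 and Uqcrq lie lowest in ZsG plus, and Cyc1 (51) and Cox4i1 (354) show the single low reading of the third ZsG plus array.

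Against cortical epithelium the ZsG plus arrays showed no common direction for the subunit genes. Higher means were found for 32 members and lower means for 51, where 46.3% of all genes were higher. Groups did not overlap for 5 members that read higher (Atp5a1, Cox6b1, Ndufb6, Ndufb7 and Ndufc2) and 5 that read lower (Cox7a2, Ndufb2, Ndufb9, Ndufs7 and Uqcrq), against 9.9% and 13.4% of all genes. An unadjusted p under 0.05 was reached by 1 on each side, Ndufb7 and Ndufs7, with 7.44% and 11.3% of all genes. The median was -0.34, with -0.14 over all genes, and with the centrings on all probe sets and on the genes tested it was 0.20 and 0.11, with 0.40 and 0.32 over all genes. The members thus lay under the median of all genes in each case. Without overlap, 16 and 15 members then read higher, against 17.1% and 15.7% of all genes, and 1 and 1 lower, against 7.68% and 8.46%; after repeated quantile normalization 4 read higher and 12 lower, against 13.5% and 11.1%. By complex the median was -0.57, -1.01, -0.38, -0.11 and 0.00 for complexes I to V. Without the first ZsG plus array 23 members read lower without overlap (21.2% of all genes), and without the second 14 read higher (16.3%).

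The comparisons share groups, so a gene that read high in ZsG minus mTEC enters both comparisons with that group. For 14 members, or 16.9%, ZsG minus mTEC lay above both other groups without overlap, against 4.31% of all genes: Ndufa2, Ndufa4, Ndufa12, Ndufb8, Ndufc2, Uqcrb, Uqcrq, Cox4i1, Cox6a1, Cox6c, Cox7b2, Atp5e, Atp5g3 and Atp5j2. Ndufa4 is an example of intermediate size, with 12689, 12073 and 9824 in ZsG minus cTEC, 20393, 13676 and 15501 in ZsG minus mTEC and 9298, 9992 and 6170 in ZsG plus. The cortical and reporter-positive readings of Ndufa4 overlapped only at the edge. The count of 14 holds for the deposited scaling and the brightest probe sets. It needs ZsG plus to read under ZsG minus mTEC without overlap. After centring on all probe sets and on the genes tested, only 10 and 9 members did so, against 6.46% and 5.82% of all genes. With probe sets lacking the suffixes _a_at, _s_at and _x_at, 8 of 67 did, against 12.2%.

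Of 49 members with more than 1 probe set, all probe sets had the same sign for 32 between the ZsG minus groups, for 31 between ZsG plus and ZsG minus mTEC, and for 28 between ZsG plus and ZsG minus cTEC. Cox5b, with 6 probe sets, is an example of partial accord. Its brightest read 18629, 24855 and 25446 in ZsG minus cTEC and 35163, 30744 and 34271 in ZsG minus mTEC, and its 4 brightest all lay higher in ZsG minus mTEC, by 0.36 to 0.98.

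The neighbouring pathways were described in the same way. Of 43 measured assembly factors, the chaperones that build the complexes, 0 passed the limma test between the ZsG minus groups and 21 lay above 0, with a median of -0.01. The subunit genes and the factors that assemble them thus had different medians there, 0.45 and -0.01; the difference was not tested. In ZsG plus against ZsG minus mTEC 0 passed as well. At an unadjusted p under 0.05, 12 of the 43 lay lower and 0 higher, where all genes gave 10.2% and 3.2%. Against ZsG minus cTEC, 2 factors passed in ZsG plus, both for complex I: Foxred1 (-3.96 ± 0.69, adjusted p = 0.035) and Ndufaf5 (-4.45 ± 0.88, adjusted p = 0.0425). Foxred1 read 68, 19 and 17 in ZsG plus against 455, 552 and 340 in ZsG minus cTEC, and Ndufaf5 211, 23 and 42 against 975, 1147 and 1934. Their ZsG plus readings lie in the range of the controls. Cox17, a copper chaperone for complex IV, read 27750, 29310 and 27890 in ZsG minus cTEC and 50170, 52720 and 53440 in ZsG minus mTEC, without overlap and without passing the test.

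Mitochondrial ribosomal proteins, which serve the translation of the subunits encoded by mitochondrial DNA, had 48 of 76 genes above 0 between the ZsG minus groups and a median of 0.19. In ZsG plus their medians were -1.12 and -0.97 against ZsG minus mTEC and ZsG minus cTEC, and 0 passed the limma test in any comparison. At an unadjusted p under 0.05, 16 and 10 of the 76 lay lower in ZsG plus, where all genes gave 10.2% and 11.3%. On the higher side were 1 and 3, where all genes gave 3.2% and 7.44%. Enzymes of the citric acid cycle and pyruvate dehydrogenase had a median of 0.15 between the ZsG minus groups over 17 genes. Glycolytic enzymes, with the glucose transporter Slc2a1, had 0.32 over 15, with 13 above 0. Regulators of mitochondrial biogenesis (16 genes, median -0.04) stood near the median of all genes. So did 12 genes for electron carriers, membrane transporters and the ATP synthase inhibitor Atpif1 (median 0.09). In these 4 lists too 0 genes passed the limma test in any comparison, and at an unadjusted p under 0.05 no list had more than 3 genes on 1 side.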

How the data were processed

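RNA (5 ng per sample) was amplified with an Ovation Pico kit and hybridised to 9 Affymetrix arrays, 3 per group, per the labels' protocols. The deposited values are probe set intensities on a linear scale; which software made them is not given in the sources used here. Detection calls were not analysed here. Every array had the same mean of 1250 after 2% was trimmed at each end, so the authors had brought the deposited intensities to a common mean, a scaling that leaves the median of an array free. The number of arrays limits the precision, and no pair of arrays held identical values.

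Intensities were taken to log2 without an offset. Of 45101 probe sets, 34958 had 1 gene symbol in the 2016 platform annotation, 932 had several and 9211 had none; only the first were named or tested. For genes with several probe sets the brightest was used, which gave 18194 genes. The 83 members had 170 probe sets, and all 83 carried the same symbol in RefSeq (GRCm38.p6).

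The 3 groups were fitted together in limma 3.58.1 under R 4.3.3 (lmFit and eBayes, 1 coefficient per group, 9 arrays), with 6 residual and 3.28 prior degrees of freedom. Two-sided p-values were adjusted by Benjamini-Hochberg over all genes tested, with a threshold of 0.05. The sign ± precedes the standard error of a log2 difference, and ratios are of geometric means. Members and lists were chosen with earlier results of these data known, and the division of subunits into roles was made after the values were seen, so lists are described by counts and medians without a test. Genes named are the 3 brightest of each complex, the highest and lowest difference of each complex and comparison, all complex II genes, Cyc1 and the isoform families; others were named after their values were seen.

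The fit was checked on simulated data, with the spreads measured in each group shuffled among the genes. It did not recover the smaller of the changes put in, missed most of the larger ones and missed some of the largest. The test is thus weak for large differences as well as modest ones. The lower spread of the members was not kept, so the check does not measure how well changes in them would be found. Whether replicate numbers pair the arrays is not stated in the labels. Over the 9 same-numbered pairs, deviations from the group means correlated at -0.015 to 0.0132. Such values over all genes cannot exclude a shared animal or day. Figures were drawn with matplotlib 3.10.9. Alternatives changed 1 choice at a time.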

Additional observations from a re-analysis of the deposited data

How the results depend on the processing

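No alternative called a subunit gene in ZsG plus against ZsG minus mTEC. An intensity trend called 1 in ZsG plus against ZsG minus cTEC, and 1 was called in ZsG minus mTEC against ZsG minus cTEC with only the 2 groups compared, with array weights and with an intensity trend. With a replicate block 0 members were called in every comparison, and over all genes 0, 16 and 0 in the order ZsG plus against ZsG minus mTEC, ZsG plus against ZsG minus cTEC and ZsG minus mTEC against ZsG minus cTEC. Whether the replicate numbers mark a shared animal or day is not known. Over all genes, 40, 317 and 114 were called in that order, with 0 to 230, 0 to 735 and 0 to 1220 over the alternatives. Of these calls 3 were higher and 37 lower, 109 and 208, and 96 and 18; after centring on all probe sets 1 and 2, 185 and 106, and 61 and 10; after centring on the genes tested 1 and 2, 158 and 113, and 38 and 10; after repeated quantile normalization 4 and 11, 141 and 124, and 149 and 29.

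The median over subunit genes in ZsG plus against ZsG minus mTEC was -0.13 and -0.038 after centring on all probe sets and on the genes tested, and -0.96 to -0.53 with 1 array left out; against ZsG minus cTEC the centred values were 0.20 and 0.11. For ZsG minus mTEC against ZsG minus cTEC it was 0.33 over the 67 members with probe sets lacking the suffixes _a_at, _s_at and _x_at and 0.28 after centring on the genes tested.

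Some differences of single genes changed sign. In ZsG plus against ZsG minus mTEC the mean of all probe sets gave -0.24 for Uqcrh and 0.12 for Uqcrq, probe sets without suffix gave -0.54 for Uqcrh and 3.37 for Ndufa12, quantile normalization gave -0.064 for Atp5a1 and -0.19 for Uqcrh, array weights gave -0.17 for Uqcrh, and with 1 array left out Uqcrh ran from -0.60 to 0.47. In ZsG plus against ZsG minus cTEC, Atp5g1 was -0.22 by the mean of probe sets and -1.25 without suffix, where Cox7c was 1.14 and Ndufb7 -0.79, and Ndufb4 ran from -0.42 to 2.93 with 1 array left out. In ZsG minus mTEC against ZsG minus cTEC, Atp5k was 0.58 and Uqcrq -1.08 by the mean of probe sets; without suffix Atp5k was 0.89, Uqcrq -2.17 and Sdha 0.024; array weights gave 0.063 for Atp5k; and with 1 array left out Atp5k ran from -0.43 to 0.13 and Cox6b2 from -1.12 to 0.18. In the 3 comparisons 46, 48 and 36 of 83 members changed sign under at least 1 alternative. The cause was not tested.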

Other observations

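Probe sets with several symbols were left out of the set of 83 genes, and 10 of them named a subunit. A probe set shared by Ndufs6 and Ndufs6b read 5181, 6331 and 9984 in ZsG minus cTEC, 11815, 10189 and 5600 in ZsG minus mTEC and 11514, 8373 and 127 in ZsG plus. Ndufs6 is a zinc-binding accessory subunit of complex I, and the reading of 127 came from ZsG plus array 3, which also gave 51 for Cyc1 and 69 for Ndufb10. A probe set shared by Ndufb4, Ndufb4b and Ndufb4c read 4640, 5763 and 4071 in ZsG minus cTEC, 11331, 9195 and 5777 in ZsG minus mTEC and 9371, 9400 and 17 in ZsG plus, and the ZsG minus groups were separate there by a narrow step. The probe set that names Ndufb4 alone read between 2 and 579 on all 9 arrays.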
